A study of Mus musculus with 16 samples.

Results

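Oxidative phosphorylation makes most of the ATP of a resting cell, and the levels of 96 mouse genes named for it are described here, out of 26357 genes in the table. The members are the genes whose symbol starts with Nduf, Uqcr or Atp5, with Sdh followed by a letter from a to d, or with Cox and a number from 4 to 8, leaving out a single pseudogene symbol, Atp5c1-ps. They comprise 83 subunits of the respiratory complexes and 13 assembly factors or other genes that share the names. The study, titled for a psoriasis-like dermatitis driven by IL-23, sequenced total RNA of 16 samples in 4 groups of 4. The IL-23 mice had received IL-23, a cytokine of type 17 inflammation, and vehicle dosing at 0 mpk, by mouth (oral) in 1 group and into the peritoneal cavity (intraperitoneal) in the other. In the vehicle mice vehicle took the place of IL-23, with the same dosing by either route, so the dose of compound was 0 mpk in all 4 groups. The labels name neither the tissue nor a strain, age, sex or day of harvest, and do not say outright that the libraries came from separate animals, so the p-values speak only of the spread among the libraries, which may be technical.

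In mitochondria, complex I and complex II pass electrons from NADH and succinate to ubiquinone, complex III passes them on to cytochrome c, and complex IV, cytochrome c oxidase, hands them to oxygen. Complexes I, III and IV pump protons as they do so, and ATP synthase uses the returning protons to make ATP. Most subunits are encoded in the nucleus and a few in the mitochondrial genome, and some complex IV subunits come as alternative isoforms, of which Cox6a2, Cox7a1 and Cox8b are the forms of heart and skeletal muscle.

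Levels are in CPM, counts scaled to the library total times its TMM factor, and a gene is called where edgeR's quasi-likelihood test gives a Benjamini-Hochberg adjusted p below 0.05 over all genes tested. Libraries held 6381990 to 10078531 counts in IL-23 mice and 7159325 to 14432930 counts in vehicle mice, and TMM factors were 0.848 to 0.984 and 1.04 to 1.12. Keratinocyte, skeletal muscle and adipocyte genes were all present: 12 keratinocyte genes summed to 44221 to 79526 CPM in IL-23 libraries and 29829.6 to 38958 CPM in vehicle libraries, and Ucp1, which defines brown adipocytes, averaged 0.275 and 0.356 CPM. The 13 protein genes of the mitochondrial genome are listed at 0 in all 16 libraries, so the subunits they encode could not be compared. Of the IL-23 intraperitoneal libraries, 25 had the highest keratinocyte sum of all (79526 CPM) and the lowest TMM factor (0.848), and 28 the lowest keratinocyte sum of the IL-23 libraries (44221 CPM) and the lowest sum of the 3 muscle isoforms (33.3 CPM), and counts are given with and without each.

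Of the 96 members, 90 had enough counts to be tested. Over both routes 70 of the 90 (77.8%) were higher in IL-23 mice, 4 were lower and 16 were not called. Among all 14671 genes tested, 34.9% were called higher and 38.7% lower, 73.6% in all. All 8 IL-23 libraries lay on one side of all 8 vehicle libraries for 46 of the 90 members (51.1%), against 38.3% of all genes. The median log2 fold change of the 90 members was 0.48, against -0.04 for all genes tested, and 80 of them had a positive log2 fold change. Without IL-23 intraperitoneal library 28, 72 members were higher and 4 lower (5347 and 5681 of all 14832 genes tested). Without library 25 there were 69 and 5 (5130 and 5610 of all 14862 genes tested). With plain library size in place of TMM factors, a scaling that moved the median of all genes to -0.25, the split was 58 higher and 11 lower and the members' median 0.27. Of all 14671 genes, 3515 were then called higher and 7516 lower. The 96 genes together took 1.37% to 1.61% of the raw counts of an IL-23 library and 1.08% to 1.29% of a vehicle library, without overlap between the agents.

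Markers of other cells moved with this rise. For comparison, 34.9% of all genes tested were called higher over both routes and 38.7% lower. Of 12 keratinocyte genes 9 rose and 2 fell, with a median log2 fold change of 0.48; Krt1, a keratin of suprabasal epidermis, had 3.45 ± 0.21, and Krt15, a keratin of basal cells and hair follicles, -2.10 ± 0.10. Of 12 neutrophil and macrophage genes 8 rose and 0 fell, with a median of 1.66 and a sum of 20308 to 31020.2 CPM in IL-23 libraries against 359.9 to 474 CPM in vehicle libraries. The sum of the other 10 without S100a8 and S100a9 was 339 to 1224 CPM in IL-23 libraries (median 477) against 277 to 412 CPM in vehicle libraries (median 351), with overlap. S100a8 and S100a9, which keratinocytes also express under inflammation, had log2 fold changes of 8.59 ± 0.30 and 8.46 ± 0.30 and averaged 10284 and 13376 CPM in IL-23 mice against 27.1 and 38.9 CPM in vehicle mice. Of 13 adipocyte genes 13 fell, with a median of -1.26, Plin1 and Lep at -2.24 ± 0.21 and -2.23 ± 0.22, and of 4 tested brown adipocyte genes 2 fell, Prdm16 (-1.16 ± 0.11) and Cidea (-0.93 ± 0.11). The part of these cell types in the members' rise was not tested.

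**Figure D1:**
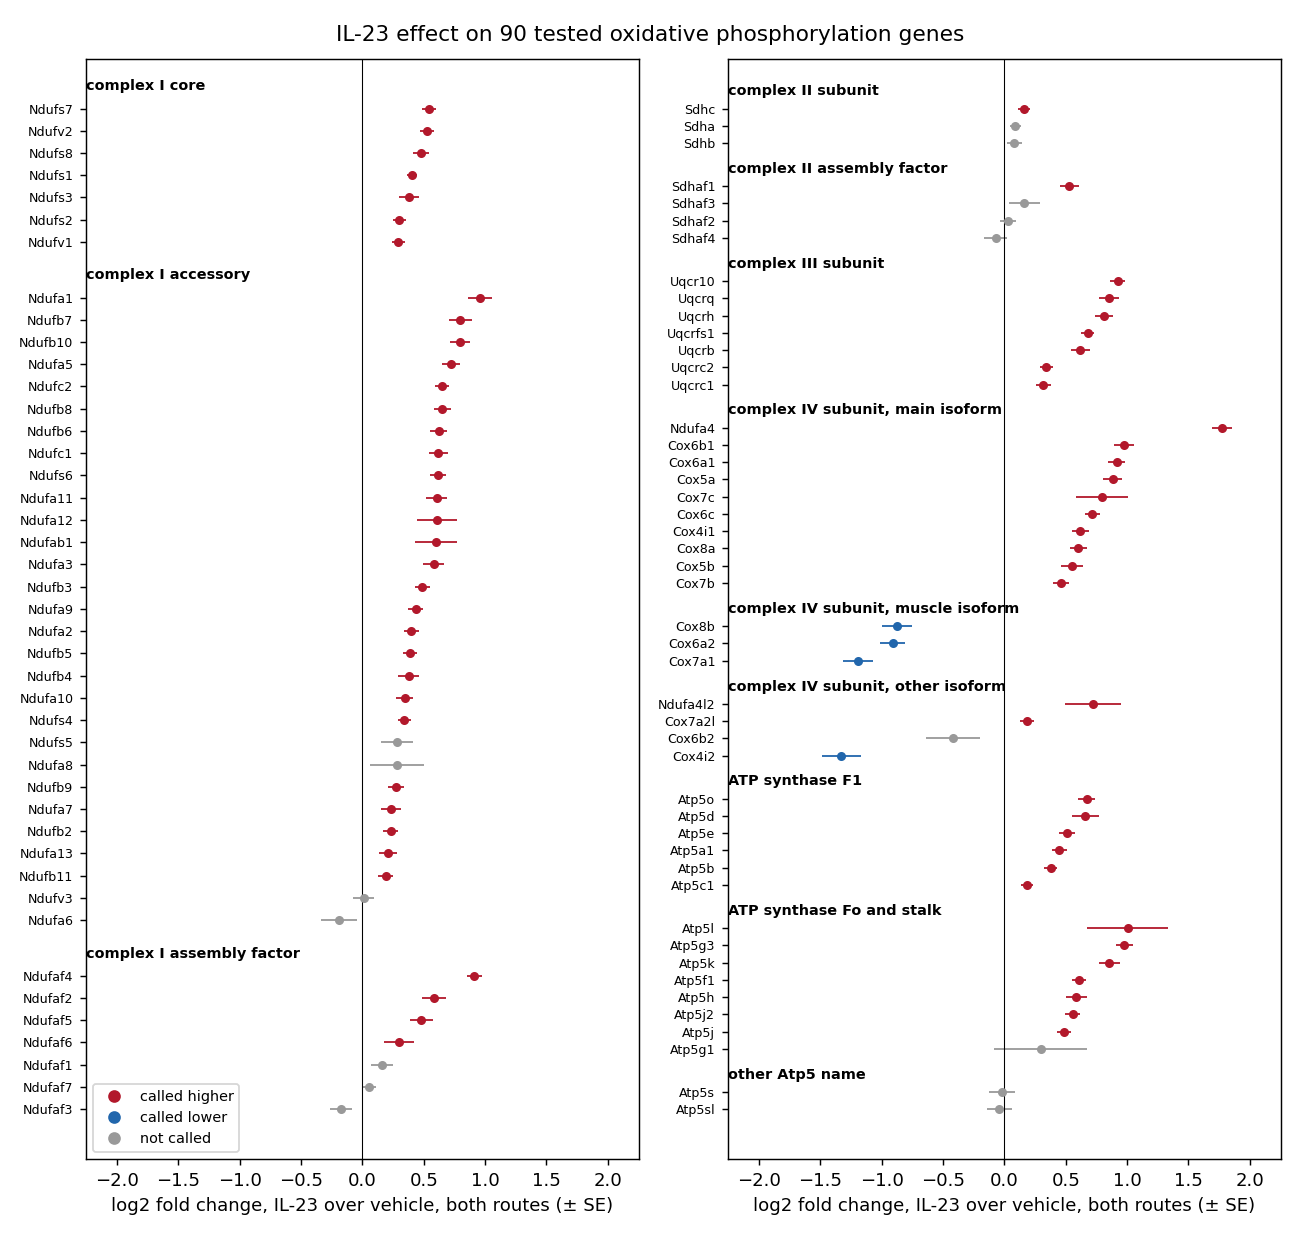
Fitted log2 fold change of IL-23 over vehicle, as the mean of both routes, for the 90 tested genes, grouped by role and ordered by size within a role; bars are the standard error, red points are called higher, blue points called lower and grey points not called. Most subunits of complexes I, III and IV and of ATP synthase lie to the right of 0, Ndufa4 lies farthest right at 1.77, the 3 muscle isoforms and Cox4i2 lie to the left, and complex II lies close to 0.

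In complex I, 32 of 36 subunits rose and 0 fell, with a median log2 fold change of 0.42. All 7 nuclear core subunits, which carry the NADH site and the iron-sulfur clusters, rose, by 0.29 to 0.54 on the log2 scale. With plain library size 24 of the 36 were called higher, Ndufv1 no longer among them (0.087), and 2, Ndufa6 and Ndufv3, lower. Ndufs1, the largest iron-sulfur subunit, had 164, 173, 181 and 179.5 CPM in the 4 IL-23 oral libraries against 131, 146, 148 and 140.2 CPM in the 4 vehicle oral libraries. It had 178, 178, 174 and 183 CPM in the 4 IL-23 intraperitoneal libraries against 125, 129.6, 128 and 119 CPM in the 4 vehicle intraperitoneal libraries. Every IL-23 library was above every vehicle library, and the log2 fold change was 0.41 ± 0.04 (± SE here and below, edgeR adjusted p = 2.09e-07). Ndufv1, which binds NADH and its flavin, averaged 231 ± 18.4 CPM in IL-23 mice and 189 ± 19.0 CPM in vehicle mice (SD, 8 libraries each), and its log2 fold change was 0.29 ± 0.05.

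Of the 29 accessory subunits, which surround the core and are not thought to carry electrons, 25 rose. Ndufa1, a small subunit of the membrane arm, had the largest rise among them: 73.8 to 131 CPM over the 8 IL-23 libraries (median 102) against 46.1 to 64.1 CPM over the 8 vehicle libraries (median 54.2), a log2 fold change of 0.96 ± 0.09 with no overlap. Ndufb7 followed at 0.80 ± 0.10. The 4 accessory subunits that were not called were Ndufa6 at -0.19 ± 0.14, Ndufv3 at 0.01 ± 0.09, Ndufa8 at 0.28 ± 0.22 and Ndufs5 at 0.28 ± 0.13. Ndufa6, Ndufa8 and Ndufs5 had 1840, 1569 and 1434 counts over all libraries, and Ndufv3 had 14997. Of 7 complex I assembly factors, which build the complex without staying in it, 4 rose. Ndufaf4 had the largest change of these and averaged 61.0 ± 5.21 CPM in IL-23 mice and 32.4 ± 1.89 CPM in vehicle mice, and its log2 fold change was 0.91 ± 0.06 (adjusted p = 7.26e-10), with no overlap. Ndufaf2 rose by 0.58 ± 0.10, but 65.6% of its exon bases are overlapped by an antisense gene, and the strand setting of the counting is not given in the sources used here.

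Complex II, succinate dehydrogenase, has only nuclear subunits and also serves the citrate cycle. Of its 4 subunits 3 were tested, and their median log2 fold change was 0.09 with TMM factors and -0.12 with plain library size. Sdha, the flavin subunit that oxidises succinate, had 294, 275, 311 and 296 CPM in IL-23 oral libraries against 282, 301, 305 and 276 CPM in vehicle oral libraries. It had 289, 291, 292 and 273 CPM in IL-23 intraperitoneal libraries against 254, 268, 246 and 253 CPM in vehicle intraperitoneal libraries. The oral groups overlapped and the intraperitoneal groups did not. Its log2 fold change over both routes was 0.09 ± 0.04 (adjusted p = 0.0734), which passed the threshold when oral library 24 or intraperitoneal library 28 of the IL-23 mice was left out (0.11 each), with RLE factors and with DESeq2 (0.12 each). With plain library size it was lower, at -0.12 (edgeR adjusted p = 0.0221). Sdhb, the iron-sulfur subunit, was not called (0.08 ± 0.06, adjusted p = 0.206). Sdhc, a membrane anchor, was called at 0.16 ± 0.05 (adjusted p = 0.00575), a call lost with upper-quartile factors (0.074) and with plain library size, where its value was -0.045. The second anchor, Sdhd, had 7 counts in all libraries together and was not tested. Of 4 complex II assembly factors 1 rose, Sdhaf1, at 0.53 ± 0.08, and 69.6% of its exon bases are overlapped by an antisense gene.

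In complex III, 7 of 7 tested subunits rose, with a median log2 fold change of 0.68. Uqcr10, a small subunit of the membrane part, had 252, 237, 264 and 243 CPM in IL-23 oral libraries against 133, 128, 132 and 124 CPM in vehicle oral libraries. It had 268, 204, 202 and 216 CPM in IL-23 intraperitoneal libraries against 113, 128, 113 and 123 CPM in vehicle intraperitoneal libraries. Each IL-23 library stood above all vehicle libraries, with a log2 fold change of 0.92 ± 0.06 (adjusted p = 8.51e-10). Uqcrq, another small subunit, rose by 0.85 ± 0.08. Uqcrfs1, the Rieske iron-sulfur protein that takes the electron to cytochrome c1, rose by 0.68 ± 0.05, and the core protein Uqcrc1 by 0.32 ± 0.06. Uqcr11 had 2 counts in all and was not tested.

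In complex IV the main isoforms and the muscle isoforms went opposite ways. All 10 tested main-isoform subunits rose, with a median log2 fold change of 0.76, and all 3 muscle isoforms fell, with a median of -0.91. These directions held with TMM, RLE and upper-quartile factors and with plain library size. Cox6a2, the muscle form of subunit VIa (chromosome 7, 128205435 to 128206366, GRCm38.p6), had 22.5, 32.5, 29.4 and 36.0 CPM in IL-23 oral libraries against 61.2, 66.4, 59.9 and 48.8 CPM in vehicle oral libraries. It had 25.1, 18.1, 23.3 and 25.9 CPM in IL-23 intraperitoneal libraries against 48.3, 43.7, 34.2 and 40.3 CPM in vehicle intraperitoneal libraries. The groups did not overlap within either route, and the log2 fold change was -0.91 ± 0.10 (adjusted p = 5.6e-07). An antisense neighbour, Itgad, overlaps 10.3% of its exon bases.

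Cox6a1, the form of most other tissues (chromosome 5, 115345652 to 115348958), had 297, 245, 297 and 271 CPM in IL-23 oral libraries against 149.6, 128, 146 and 126 CPM in vehicle oral libraries. It had 281, 209, 223 and 239 CPM in IL-23 intraperitoneal libraries against 126, 146, 128 and 141 CPM in vehicle intraperitoneal libraries. Here every IL-23 library was the higher one, and the log2 fold change was 0.91 ± 0.07 (adjusted p = 4.59e-09). Cox8b, the muscle form of subunit VIII (chromosome 7, 140898942 to 140900446), had 13.8, 15.9, 16.4 and 21.1 CPM in IL-23 oral libraries against 35.0, 36.1, 33.1 and 28.6 CPM in vehicle oral libraries. It had 18.2, 10.2, 12.8 and 14.3 CPM in IL-23 intraperitoneal libraries against 24.9, 27.8, 17.4 and 24.2 CPM in vehicle intraperitoneal libraries. The intraperitoneal groups overlapped through vehicle library 59 and IL-23 library 25, and the log2 fold change over both routes was -0.87 ± 0.12 (adjusted p = 5.79e-06). Its counterpart Cox8a averaged 208 ± 24.5 CPM in IL-23 mice and 137 ± 12.3 CPM in vehicle mice (SD, 8 libraries each), a rise of 0.60 ± 0.07 on the log2 scale with no overlap.

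Cox7a1, the muscle form of subunit VIIa (chromosome 7, 30184171 to 30186030), had 7.06, 10.1, 8.25 and 12.2 CPM in IL-23 oral libraries against 19.6, 22.9, 21.5 and 19.8 CPM in vehicle oral libraries. It had 7.78, 5.08, 7.13 and 8.12 CPM in IL-23 intraperitoneal libraries against 18.9, 18.1, 14.8 and 14.4 CPM in vehicle intraperitoneal libraries. All 8 IL-23 libraries lay below all 8 vehicle libraries, with a log2 fold change of -1.19 ± 0.12 (adjusted p = 1.57e-07). Its counterpart Cox7a2 had 85 counts over all 16 libraries, 36 in IL-23 and 49 in vehicle mice, and was not tested. It shares no stretch of 50 bases with transcripts of other genes.

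**Figure D2:**
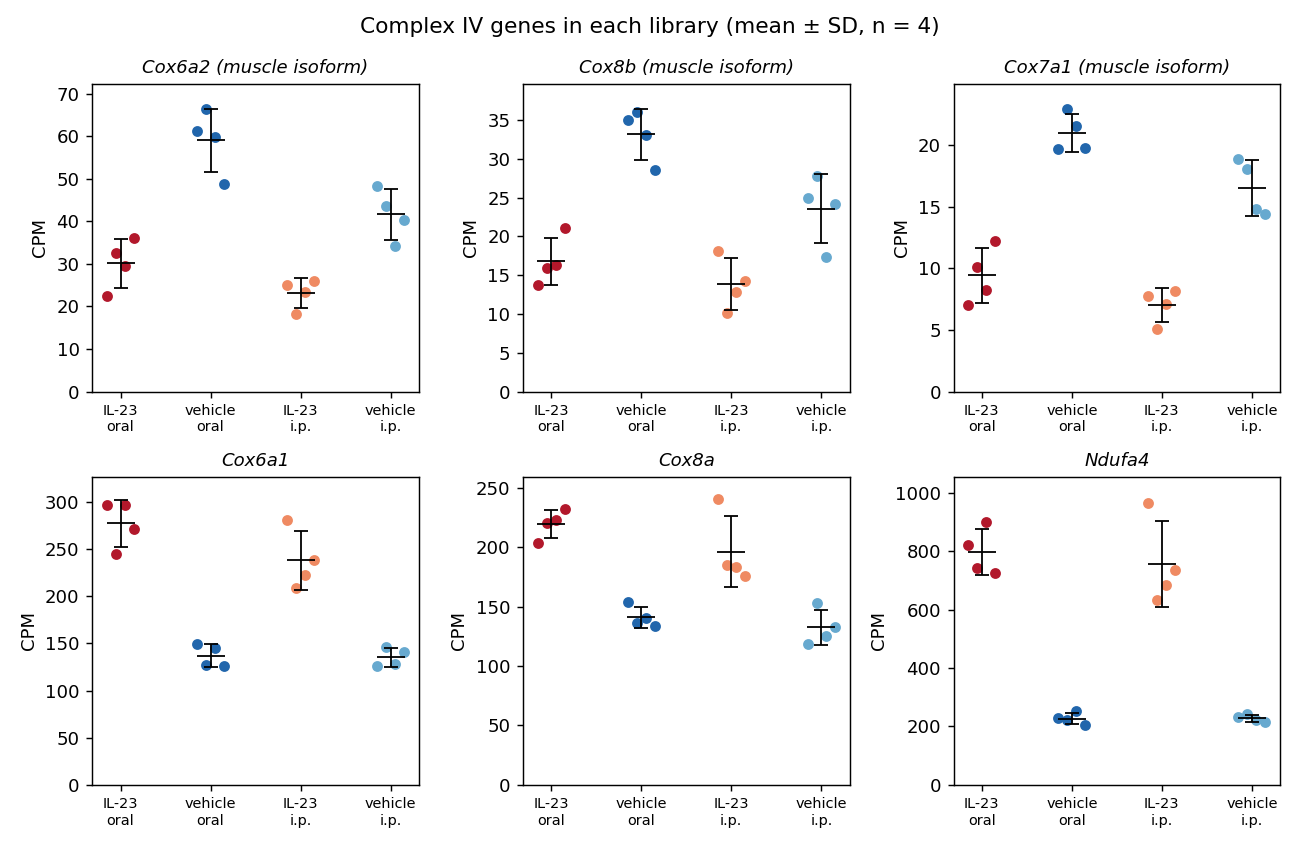
CPM of 6 complex IV genes in each library, in the order IL-23 oral, vehicle oral, IL-23 intraperitoneal, vehicle intraperitoneal; points are libraries, and bars are the mean and SD of 4. The muscle isoforms in the upper row are lower in IL-23 mice, and Cox6a1, Cox8a and Ndufa4 in the lower row are higher.

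A ratio of both isoforms within a library needs no scaling factor. The log2 ratio of Cox6a2 to Cox6a1 was -3.29 ± 0.29 in IL-23 libraries and -1.46 ± 0.33 in vehicle libraries, a difference of -1.83 (-2.0 oral, -1.66 intraperitoneal), or 3.55-fold lower in IL-23 mice. The ranges did not overlap, and a 2-sided exact permutation test of agent labels within routes gave p = 0.000408, the smallest that 4900 labelings allow, and 0.00051 after Benjamini-Hochberg adjustment over 5 isoform pairs. The ratio of Cox8b to Cox8a was -3.78 ± 0.21 in IL-23 libraries and -2.30 ± 0.29 in vehicle libraries, 2.80-fold lower in IL-23 mice (-1.48 on the log2 scale), with the same exact p and no overlap. For Cox7a1 to Cox7a2 the ratio was 3.63 ± 0.71 in IL-23 libraries and 5.62 ± 1.33 in vehicle libraries, with overlapping ranges. The difference was -1.99 (exact permutation p = 0.00286, the same after adjustment). Unlike in the pairs above, the muscle form had the higher counts. The main forms of those pairs, Cox6a1 and Cox8a, had 28011 and 25055 counts over all libraries. Whether gene annotation or the assignment of reads lowered the counts of Cox7a2 was not tested. The ratio rests on the 85 counts of Cox7a2, 0 to 17 per library. Cox7a2 had 0 counts in vehicle intraperitoneal library 50. There the log2 ratio, 8.10, depends on the constant added to each count. The size of this difference is therefore uncertain.

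Skeletal muscle genes moved with these isoforms. Among all genes tested, 38.7% were called lower over both routes. Of 30 contractile and other muscle genes 29 fell, with a median log2 fold change of -1.27, among them Myh2, a fast myosin heavy chain, at -2.03 ± 0.12, and Myl2, a slow myosin light chain, at -1.91 ± 0.18 (Tpm2, the exception, had -0.16 ± 0.09). They summed to 2981 to 5448 CPM in IL-23 libraries and 6314 to 13009 CPM in vehicle libraries, and none was at 0 on average in either agent. The counts of the 3 muscle isoforms were 0.998% to 1.49% of those of the muscle genes in IL-23 libraries (median 1.32%) and 0.964% to 1.32% in vehicle libraries (median 1.12%). In bulk RNA, fewer muscle cells in a sample and less of these transcripts per muscle cell cannot be told apart. Adipocyte genes fell as well (13 of 13), as did 2 of 4 tested brown adipocyte genes. The parts of muscle and fat content in the fall of the isoforms were not tested.

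**Figure D3:**
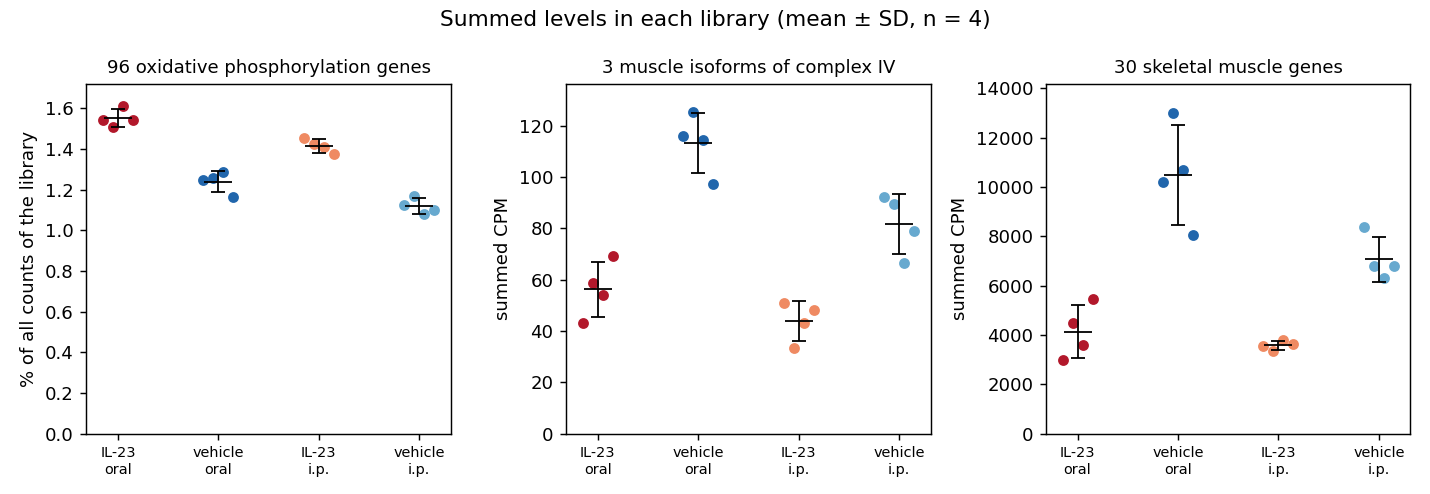
Share of all raw counts taken by the 96 members (left), summed CPM of the 3 muscle isoforms (middle) and summed CPM of the 30 skeletal muscle genes (right) in each library, in the order IL-23 oral, vehicle oral, IL-23 intraperitoneal, vehicle intraperitoneal, with mean and SD of 4. In each route the members' share is higher in IL-23 mice, and the sums of the muscle isoforms and of the muscle genes are lower.

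Ndufa4, first counted as a complex I subunit and later placed in complex IV, had the largest rise of all tested members. It had 820.1, 741, 898 and 726 CPM in IL-23 oral libraries against 227, 221, 251 and 206 CPM in vehicle oral libraries. It had 966, 633, 685 and 735 CPM in IL-23 intraperitoneal libraries against 232, 243, 222 and 214 CPM in vehicle intraperitoneal libraries. The lowest IL-23 library was 633 CPM and the highest vehicle library 251 CPM, and the rise was 3.41-fold, a log2 fold change of 1.77 ± 0.08 (adjusted p = 2.9e-11). Its transcripts share no stretch of 50 bases with those of other genes, and its exons overlap no other gene. Its isoform Ndufa4l2, which low oxygen induces in other settings, had 21.7, 24.6, 43.0 and 43.6 CPM in IL-23 oral libraries against 19.6, 17.2, 15.5 and 19.8 CPM in vehicle oral libraries, and 43.0, 16.8, 14.5 and 34.7 CPM in IL-23 intraperitoneal libraries against 13.9, 27.4, 19.4 and 13.3 CPM in vehicle intraperitoneal libraries. It varied widely among IL-23 libraries, and rose by 0.72 ± 0.23 over both routes (adjusted p = 0.00861). The log2 ratio of Ndufa4l2 to Ndufa4 was lower in IL-23 mice by 1.12 (-4.78 ± 0.53 against -3.67 ± 0.34 in vehicle libraries, exact permutation p = 0.000408), with ranges that overlapped at -4.06.

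Among the other main isoforms, Cox6b1, on the intermembrane-space side of the complex, averaged 319.5 ± 47.2 CPM in IL-23 mice and 162 ± 16.9 CPM in vehicle mice (SD, 8 libraries each), and its log2 fold change was 0.98 ± 0.08. Cox5a, a matrix-side subunit, averaged 302 ± 45.5 CPM in IL-23 mice and 164 ± 16.9 CPM in vehicle mice, and its log2 fold change was 0.88 ± 0.08. Cox4i1, the common form of subunit IV, rose by 0.62 ± 0.07. Its isoform Cox4i2, which is known for lung and for low oxygen, fell, with 5.58, 2.90, 2.92 and 3.93 CPM in IL-23 oral libraries against 9.15, 6.70, 6.93 and 7.71 CPM in vehicle oral libraries, and 3.24, 2.08, 2.26 and 2.16 CPM in IL-23 intraperitoneal libraries against 9.09, 8.18, 6.19 and 6.80 CPM in vehicle intraperitoneal libraries. Every IL-23 library was below every vehicle library, with a log2 fold change of -1.33 ± 0.16 (adjusted p = 1.05e-06) from 188 and 697 counts, and the log2 ratio to Cox4i1 was lower by 1.93 in IL-23 mice (exact permutation p = 0.000408, no overlap). Cox7a2l, a supercomplex factor related to Cox7a2, was called at 0.18 ± 0.06, a call lost with upper-quartile factors (0.097) and with plain library size (-0.024). Cox6b2, a testis form at 1.40 ± 0.642 CPM in IL-23 mice and 1.88 ± 0.409 CPM in vehicle mice, was not called over both routes (-0.42 ± 0.22, adjusted p = 0.0978), and it passed the threshold without IL-23 oral library 68 (-0.62), with upper-quartile factors (-0.50) and with plain library size (-0.62). The testis forms Cox7b2 and Cox8c had 1 and 0 counts in all.

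**Figure D4:**
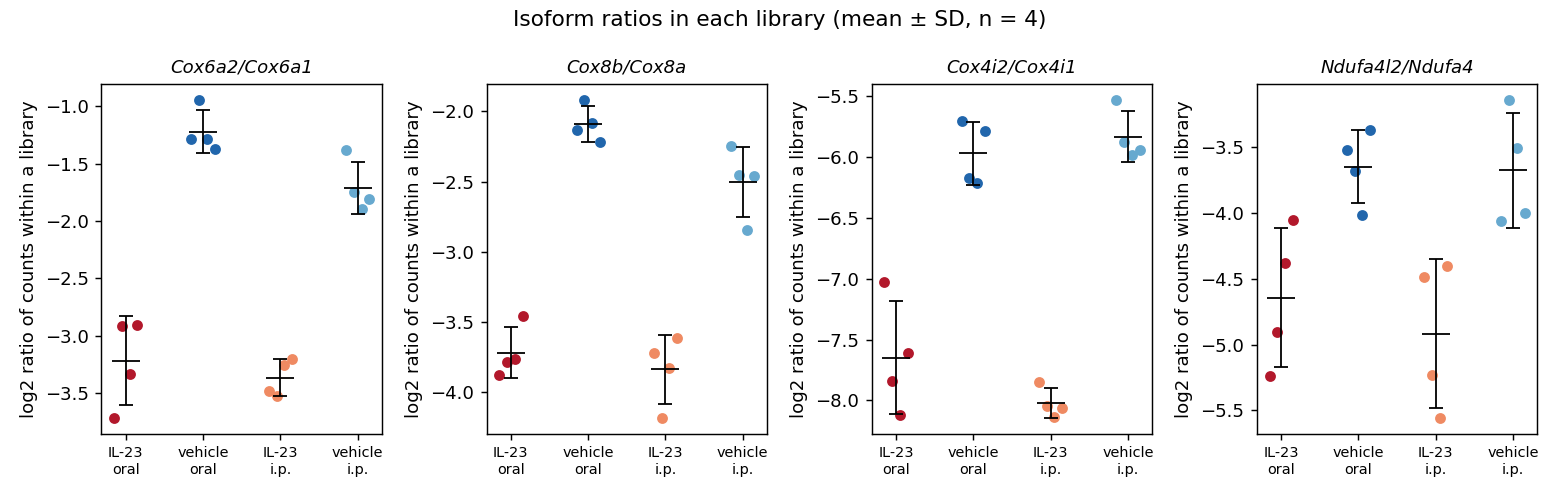
Log2 ratio of the raw counts of 2 isoforms within each library (0.5 added to each count), in the order IL-23 oral, vehicle oral, IL-23 intraperitoneal, vehicle intraperitoneal; points are libraries, and bars are the mean and SD of 4. All 4 ratios are lower in IL-23 mice within each route on average, without overlap over both routes for Cox6a2 to Cox6a1, Cox8b to Cox8a and Cox4i2 to Cox4i1.

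In ATP synthase, 13 of 14 tested subunits rose, with a median log2 fold change of 0.57. Atp5b, the catalytic beta subunit, averaged 1615 ± 75.4 CPM in IL-23 mice and 1245 ± 108 CPM in vehicle mice (SD, 8 libraries each), and its log2 fold change was 0.38 ± 0.05, and Atp5a1, the alpha subunit beside it, rose by 0.45 ± 0.06. The ring of c subunits that protons turn is encoded by 3 genes with the same mature protein. Of these Atp5g3 had 861, 769.7, 981 and 892 CPM in IL-23 oral libraries against 433, 427, 467 and 360.3 CPM in vehicle oral libraries, and 810.4, 677, 689 and 684 CPM in IL-23 intraperitoneal libraries against 363, 423, 371 and 371 CPM in vehicle intraperitoneal libraries. All IL-23 libraries exceeded all vehicle libraries, and the log2 fold change was 0.98 ± 0.07 (adjusted p = 2.2e-09). Atp5g1 had 136 counts in all and was not called, and Atp5g2 had 125 and was not tested. Atp5o, the stalk protein that confers sensitivity to oligomycin, rose by 0.67 ± 0.07, and Atp5d, the delta subunit of the F1 part, by 0.66 ± 0.11. Of the exon bases of Atp5o, 39.5% are overlapped by other genes, among them Donson on the same strand. Of its 50-base stretches, 28.2% are shared with transcripts of other genes. Atp5l, subunit g, was called at 1.0 ± 0.33, from 181 counts, and 68.5% of its 50-base stretches are shared with transcripts of other genes, 12 of them pseudogenes, so its value is uncertain. Atp5s and Atp5sl, which carry the name without being listed as subunits, had -0.02 ± 0.10 and -0.04 ± 0.10 and were not called.

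Proximal promoters, as RefSeq gives them on GRCm38.p6, were found for 80 of the 96 members, and in 62 of the 80 the start used lies at the outer end of the gene. They are shown here for the muscle isoform Cox8b and its counterpart Cox8a, for Cox7a1, the other muscle isoform in the table, for the main isoform Cox6a1 and for Ndufa4, the gene with the largest rise. Each is the 200 bases before the outer end of the gene, 5′ to 3′ on its own strand. Capitals mark a match, on either strand, to the letters searched for: the muscle E-box CAGCTG in Cox8b and the NRF1 core GCGCATGCG in Cox6a1 (matches on both strands overlap). Cox7a1, Cox8a and Ndufa4 have no match in these 200 bases; in Cox8a the ETS letters CCGGAAGT lie across the start and again after it.
Cox7a1 (chr7:30183971-30184170, plus strand): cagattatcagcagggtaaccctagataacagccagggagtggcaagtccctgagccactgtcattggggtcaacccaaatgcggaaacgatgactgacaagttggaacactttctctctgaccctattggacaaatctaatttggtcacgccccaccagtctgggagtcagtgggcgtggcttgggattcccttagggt
Cox8b (chr7:140900447-140900646, minus strand): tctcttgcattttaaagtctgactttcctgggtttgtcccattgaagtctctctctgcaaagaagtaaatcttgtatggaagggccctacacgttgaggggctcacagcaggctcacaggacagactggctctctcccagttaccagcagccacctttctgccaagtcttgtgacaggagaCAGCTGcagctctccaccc
Cox8a (chr19:7217617-7217816, minus strand): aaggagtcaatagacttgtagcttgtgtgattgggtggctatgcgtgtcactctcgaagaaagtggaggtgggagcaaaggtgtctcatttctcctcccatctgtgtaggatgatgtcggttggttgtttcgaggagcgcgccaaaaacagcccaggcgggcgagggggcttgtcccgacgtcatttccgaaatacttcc
Cox6a1 (chr5:115348959-115349158, minus strand): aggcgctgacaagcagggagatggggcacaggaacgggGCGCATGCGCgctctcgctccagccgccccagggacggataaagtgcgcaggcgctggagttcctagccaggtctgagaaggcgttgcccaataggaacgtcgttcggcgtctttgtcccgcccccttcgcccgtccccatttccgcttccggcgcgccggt
Ndufa4 (chr6:11907451-11907650, minus strand): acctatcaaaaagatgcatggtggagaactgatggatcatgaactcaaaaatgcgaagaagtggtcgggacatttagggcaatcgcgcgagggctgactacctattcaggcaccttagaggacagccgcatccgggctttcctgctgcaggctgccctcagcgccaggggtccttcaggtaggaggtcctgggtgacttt

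In windows from 250 bases before to 50 bases after the table's start, the NRF1 letters were in 10 of 80 members' promoters (12.5%), against 1.81% of all 27025 promoters of the table. The YY1 letters AAGATGGCG were in 8.75% of the members' promoters against 1.49% of all, the ETS letters CCGGAAGT in 6.25% against 4.0%, and the estrogen-related receptor letters TCAAGGTCA in 2.5% against 0.407%. The E-box was in 7.5% against 16.1% of all, and the MEF2 letters CTAAAAATA or CTATTTATA were in 0 of 80 against 0.929%. Among the 57 promoters of members that rose, the NRF1 letters were in 12.3% and the YY1 letters in 10.5%.

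The counts within each route were close to each other. In oral mice 65 of 90 (72.2%) were higher in IL-23 mice and 4 lower, with a median log2 fold change of 0.48, while 29.2% of all genes tested were called higher and 34% lower (63.3% in all). In intraperitoneal mice 60 (66.7%) were higher and 5 lower, with a median of 0.50, while 30.8% of all genes were called higher and 30.9% lower (61.7% in all), and the counts were 63 and 4 without IL-23 intraperitoneal library 28. Without library 25 they were 59 and 5, with a median of 0.43. Of all genes, 4527 of 14832 were higher and 4510 lower without library 28, and 4330 and 4250 of 14862 without library 25. The libraries of IL-23 and vehicle mice did not overlap for 68 of the 90 members in oral mice (75.6%, against 59.7% of all genes) and for 61 in intraperitoneal mice (67.8%, against 51% of all genes). Both routes called 56 members higher and the same 4 lower: Cox6a2, Cox7a1, Cox8b and Cox4i2. A further 9 were called higher in oral mice only, 4 higher and 1 lower in intraperitoneal mice only, and 0 in opposite directions; the one lower was Cox6b2, whose call was lost without IL-23 intraperitoneal library 28 (-0.77). These lists do not show that the routes differ.

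**Figure D5:**
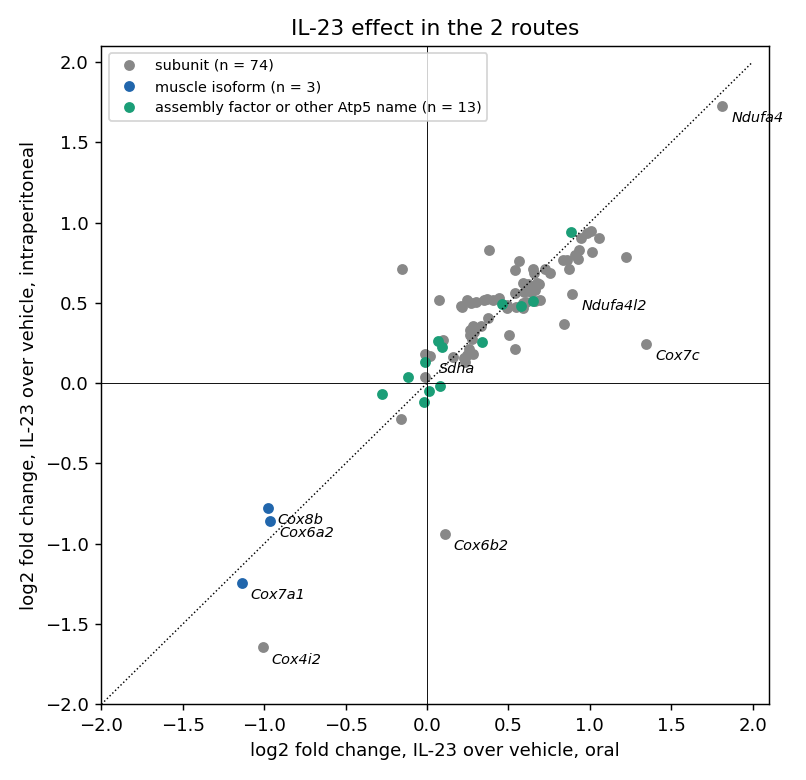
Log2 fold change of IL-23 over vehicle in oral mice (horizontal axis) and in intraperitoneal mice (vertical axis) for the 90 tested members; grey points are subunits, blue points the 3 muscle isoforms, green points assembly factors and other Atp5 names, and the dotted line marks equal values. Most points lie near the line, with Ndufa4 at the upper right and the muscle isoforms at the lower left. Cox7c and Cox6b2 lie farther below the line, and Ndufa8 (not labelled, -0.15 oral and 0.71 intraperitoneal) farther above it.

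Whether IL-23 acted differently by route was tested as its effect in intraperitoneal mice minus that in oral mice, and edgeR called 0 of the 90 members and 0% of all genes. At an unadjusted p below 0.05 it had 5 members and 796 of 14671 genes, and DESeq2 and limma-voom also called 0 members. Without IL-23 intraperitoneal library 25 there were 11 members and 1454 of 14862 genes. There were 3 members without IL-23 intraperitoneal library 28 (738 of 14832 genes) or IL-23 oral library 68 (734 of 14816 genes). The same number was left without vehicle oral library 27 (714 of 14821 genes) or 33 (774 of 14817 genes). The median difference over the members was -0.03. Cox7c, a small complex IV subunit with 545 counts in all, had 3.61, 6.64, 7.36 and 7.02 CPM in IL-23 oral libraries against 2.78, 2.56, 2.27 and 2.13 CPM in vehicle oral libraries, and 5.68, 2.08, 2.50 and 4.31 CPM in IL-23 intraperitoneal libraries against 2.16, 3.30, 3.26 and 3.40 CPM in vehicle intraperitoneal libraries. Its difference between routes was -1.10 with an unadjusted p of 0.0174 and an adjusted p of 0.875 in edgeR's quasi-likelihood test (n = 4 per group).

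Between routes within an agent (intraperitoneal minus oral), edgeR called 0 members and 0% of all genes in IL-23 mice and in vehicle mice. Most members lay slightly lower in intraperitoneal mice: 79 of 90 (87.8%) in IL-23 mice, where 47% of all genes did, with a median of -0.18, and 84 of 90 (93.3%) in vehicle mice, where 53.5% of all genes did, with a median of -0.15. Skeletal muscle genes also lay lower, 28 of 30 in IL-23 mice (median -0.29) and 30 of 30 in vehicle mice (-0.57). So did 56 and 71 of 76 mitochondrial ribosomal protein genes, but only 5 and 6 of 12 keratinocyte genes. The part of muscle content in the members' shift was not tested. At an unadjusted p below 0.05 there were 30 members (33.3%, against 12.8% of all genes) in IL-23 mice and 23 (25.6%, against 7.41%) in vehicle mice. These counts depended on single libraries. In IL-23 mice the count was 50 without intraperitoneal library 25, beside 2732 of 14862 genes (1874 of 14671 with all libraries). Without oral library 26 it was 11, beside 1623 of 14836 genes. Leaving out intraperitoneal library 28, 31 or 61 gave 16, 19 and 18 members, beside 1412 of 14832, 2002 of 14825 and 1842 of 14854 genes. In vehicle mice the count was 35 without oral library 51, beside 1190 of 14788 genes (1087 of 14671 with all libraries). Without oral library 27 or 33 it was 12 and 9, beside 793 of 14821 and 910 of 14817 genes. Without intraperitoneal library 59 or 67 it was 15 and 13, beside 602 of 14781 and 905 of 14799 genes. DESeq2 called 2 members in IL-23 mice, Ndufa2 and Ndufb4, both lower, where it called 57 of 10666 genes (0.534%), 12 of them lower (0.113%). It called 0 members in vehicle mice, and limma-voom 0 in both.

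Other mitochondrial genes were compared over both routes. Among all 14671 genes tested, 34.9% were called higher and 38.7% lower there. Of 76 tested mitochondrial ribosomal protein genes (Mrpl and Mrps), which translate the mitochondrial genome, 66 rose and 0 fell, with a median log2 fold change of 0.47. Mrpl12 and Mrpl33, proteins of the large subunit, had the largest rises, at 1.05 ± 0.10 and 0.97 ± 0.06. Of 13 citrate cycle genes 6 rose and 2 fell, with a median of 0.12: Dlst, a subunit of the oxoglutarate dehydrogenase complex, rose by 0.45 ± 0.05, and Mdh2, malate dehydrogenase, by 0.43 ± 0.06. In oral mice 4 of the 13 were higher and 2 lower (median 0.02, all genes 29.2% and 34%). In intraperitoneal mice 9 were higher and 0 lower (median 0.24, all genes 30.8% and 30.9%). The difference between routes was called for 0 of them. Of 9 other electron transport genes 5 rose and 3 fell, with a median of 0.34. Gpd2, the glycerol phosphate dehydrogenase that feeds ubiquinone, averaged 84.3 ± 7.84 CPM in IL-23 mice and 40.3 ± 2.24 CPM in vehicle mice (SD, 8 libraries each), and its log2 fold change was 1.06 ± 0.05, and Cycs, cytochrome c, rose by 0.97 ± 0.14. Of 30 tested assembly factors outside the name rule 13 rose and 5 fell, with a median of 0.13; Uqcc2, a complex III factor, rose by 0.78 ± 0.10 and Cox11, a copper factor of complex IV, by 0.74 ± 0.08.

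Of 16 regulators of mitochondrial biogenesis 6 rose and 4 fell, with a median of 0.05, beside 34.9% higher and 38.7% lower among all genes tested. Esrrg and Ppara, nuclear receptors of oxidative metabolism, had the largest changes: Esrrg averaged 2.54 ± 1.07 CPM in IL-23 mice and 9.96 ± 1.77 CPM in vehicle mice, and its log2 fold change was -1.94 ± 0.21, and Ppara averaged 25.7 ± 3.04 CPM in IL-23 mice and 64.7 ± 7.94 CPM in vehicle mice, and its log2 fold change was -1.33 ± 0.08. Ppargc1a, the coactivator PGC-1α, had -1.27 ± 0.19, whereas its relative Pprc1 had 0.93 ± 0.10 (this pair was chosen after its values were seen). Adipocyte genes moved with Esrrg, Ppara and Ppargc1a: their sum was 444 to 610.4 CPM in IL-23 libraries and 844 to 1208 CPM in vehicle libraries. The part of muscle and fat content in these changes was not tested.

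Of 8 genes for mitochondrial creatine kinase, ATP export and the outer membrane pore, 5 rose and 2 fell (34.9% and 38.7% of all genes tested did). Ckmt1, the mitochondrial creatine kinase of most tissues, averaged 651 ± 92.1 CPM in IL-23 mice and 287 ± 30.4 CPM in vehicle mice, and its log2 fold change was 1.18 ± 0.09. Ckmt2, the form of heart and skeletal muscle, averaged 37.0 ± 12.9 CPM in IL-23 mice and 71.5 ± 15.2 CPM in vehicle mice, and its log2 fold change was -0.93 ± 0.16. Among the ADP/ATP carriers, Slc25a5 had 0.67 ± 0.06 and Slc25a4, the form of heart and muscle, -0.63 ± 0.07 (chosen after their values were seen).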

How the data were processed

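The authors deposited raw counts per gene for 16 libraries. Per the labels' protocols the libraries were made with a stranded total RNA kit, and per the submitters' processing notes reads were handled with FastQC, STAR and featureCounts (Subread 1.5.0) on GRCm38. Not given in the sources used here: strand setting, handling of reads with several matches, gene annotation. The members and gene lists were chosen with earlier results of these data known.

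Genes were filtered with filterByExpr (minimum count 10), scaled with TMM and fitted in edgeR 4.0.16 (R 4.3.3) with quasi-likelihood tests, 1 mean per group and 12 residual degrees of freedom. Benjamini-Hochberg adjustment ran over all 14671 genes tested. The SE of a log2 fold change is its size divided by the square root of F. The genes named are the isoforms of complex IV, known core subunits, the 2 largest rises and falls of each role and the 2 most changed genes of each other list; other members named singly (such as Cox7c, Ndufa2, Ndufb4 and the uncalled complex I subunits) were chosen after their values were seen. Isoform ratios used raw counts plus 0.5 and exact permutation tests. Alternatives were RLE and upper-quartile factors, plain library size, other filters, DESeq2 1.42.0, limma-voom (3.58.1), fits on only the groups compared and leaving out each library. The fit was tested on simulated data in which only a small part of the genes changed, in random directions. In the deposited counts 73.6% of all genes were called over both routes. The simulation therefore cannot show how well the scaling works here. Sequences and positions are RefSeq's on GRCm38.p6; shared 50-base stretches and exon overlaps came from GENCODE transcripts of GRCm38.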

Additional observations from a re-analysis of the deposited data

Results flagged for a closer look

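Among the members named and the 5 isoform ratios, 11 of 180 sets of 4 libraries had 1 library far from its other 3 by Dixon's gap test, which chance meets in about 1 of 20 sets. Intraperitoneal library 25 of the IL-23 mice was the high one for Cox8a (240.8 CPM, the others 175.9 to 185.3 CPM), Cox4i2 (3.24 CPM, the others 2.08 to 2.26 CPM), Atp5g3 (810.4 CPM, the others 676.9 to 688.9 CPM) and Uqcrq (279.9 CPM, the others 191.2 to 201.5 CPM). Oral library 68 of the IL-23 mice was high for Cox7a2l at 121.2 CPM, with the others from 104.9 to 107.2 CPM. Intraperitoneal library 50 of the vehicle mice was high for Cox6b1 (176.3 CPM, the others 142.9 to 148.2 CPM) and Atp5g3 (423.3 CPM, the others 362.6 to 371.5 CPM). Oral library 51 of the vehicle mice was low for Sdhb (119.6 CPM, the others 138.8 to 140.9 CPM) and Sdhc (148.5 CPM, the others 161.2 to 162.3 CPM). Intraperitoneal library 49 of the vehicle mice was low for Ndufaf4 at 29.7 CPM, with the others from 31.6 to 32.0 CPM. Oral library 4 of the vehicle mice held the only count of Cox7b2, at 0.0795 CPM.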

How the results depend on the processing

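Over both routes 73 to 76 members were called when a library was left out (69 to 72 higher, 4 to 5 lower), in oral mice 62 to 71 (58 to 67 higher, 4 lower) and in intraperitoneal mice 62 to 68 (57 to 63 higher, 4 to 5 lower). Of all genes, 10567 of 14836 to 11028 of 14832 were then called over both routes. In oral mice the range was 8457 of 14836 to 9768 of 14832, and in intraperitoneal mice 8310 of 14777 to 9092 of 14836. The member counts over both routes were 72 higher and 4 lower with RLE factors and with DESeq2, and 70 and 4 with limma-voom and with no filter on counts. Of all genes, 5405 were called higher and 5382 lower with RLE factors (14671 tested), and 5377 and 5379 with DESeq2 (14628 tested). With limma-voom it was 5082 and 5690 (14671 tested), and with no filter 5522 and 5876 (20799 tested). The members were 63 higher and 6 lower with upper-quartile factors, where 4466 of 14671 genes were called higher and 6433 lower. With plain library size, which moved the median of all genes to -0.25, 58 members were higher and 11 lower over both routes. Of all 14671 genes, 3515 were then called higher and 7516 lower. The log2 fold changes of Sdha were then -0.18 (oral), -0.049 (intraperitoneal) and -0.12 (both). Those of Sdhc were -0.040, -0.050 and -0.045, and that of Cox7a2l over both routes was -0.024. With this change of scaling the median of all genes moved from -0.043 to -0.250, and that of the members from 0.479 to 0.270. Why the TMM factors differed between the agents was not tested. Cox6a2, Cox7a1, Cox8b and Cox4i2 were lower under every setting run, and Ndufa4 was higher, by 1.56 to 1.83 over both routes. The isoform log2 differences with a library left out were -1.88 to -1.74 for Cox6a2 to Cox6a1, -1.54 to -1.43 for Cox8b to Cox8a, -2.04 to -1.85 for Cox4i2 to Cox4i1, -1.21 to -1.01 for Ndufa4l2 to Ndufa4 and -2.21 to -1.66 for Cox7a1 to Cox7a2. DESeq2 called 2 members between routes in IL-23 mice, of which 2 were lower, where edgeR called 0; over all genes it called 57 of 10666, 45 of them higher. For the Atp5l, Sdha, Sdhb, Sdhc, Ndufa4l2, Cox6b2 and Cox7a2l calls within 1 route, leaving out 1 library could change the call, and of single-gene values without a library 1691 kept their side of the threshold, 28 lost a call and 9 gained one. No paired analysis was possible because no replicate number is shared between groups. Cox7a2, Sdhd, Uqcr11, Cox7b2, Cox8c and Atp5g2 had too few counts for a change to be detected. Sdhd and Uqcr11 had 7 and 2 counts, where Sdha and Uqcr10 of the same complexes had 42550 and 25566. Whether gene annotation or the assignment of reads lowered such counts was not tested.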

Other observations

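AA467197, a gene related to Ndufa4 whose symbol falls outside the name rule, averaged 13.6 ± 2.76 CPM (10.9 to 17.9) in IL-23 mice and 0.494 ± 0.181 CPM (0.318 to 0.792) in vehicle mice (SD, 8 libraries each), from 838 and 45 counts. Its log2 fold change was 4.76 ± 0.20 over both routes (edgeR adjusted p = 6.24e-12), 4.87 in oral and 4.66 in intraperitoneal mice, with no overlap between the agents. It was chosen after its values were seen. Its transcript also carries the hairpin of Mir147, printed here as RefSeq gives it with the bases that pair with the Ndufa4 site in capitals, beside a site in the 3′ UTR of Ndufa4 that holds their complement.
Mir147 hairpin (chr2:122640803-122640881, plus strand, GRCm38.p6): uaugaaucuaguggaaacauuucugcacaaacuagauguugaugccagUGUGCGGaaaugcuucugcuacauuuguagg
Ndufa4 site (chr6:11900465-11900493, minus strand, GRCm38): tcagaagccatCCGCACAattttccactt
The site starts 53 bases after the last coding base, and its capital letters occur in the transcripts of 1849 of 21901 protein-coding genes (8.44%). The counts hold host transcripts, not the mature miRNA. Both AA467197 and Ndufa4 were higher in IL-23 mice.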
